A study of Mus musculus with 55 samples.

Results

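The 10 genes described here are imprinted genes measured in mouse pancreatic islets: H19, Igf2, Dlk1, Meg3, Rian, Mirg, Peg3, Plagl1, Grb10 and Gnas. They were taken by name from a fixed list, which was drawn up with earlier results of these data known. Matched by Ensembl identifier to the table of read counts, all 10 were found among its 47937 genes. The libraries were bulk RNA-seq of hand-picked, cultured whole islets from C57B6/J male mice, 16 libraries in 6 groups. Wild-type islets gave 3 libraries at 8 weeks (replicates 1, 3 and 4) and 3 at 25 weeks (replicates 2, 3 and 4). Heterozygous islets gave 3 libraries at 8 weeks (replicates 1, 2 and 3) and 2 at 25 weeks (replicates 1 and 2). Islets labelled Eed -/- (βEedKO) gave 3 libraries at 8 weeks (replicates 1, 4 and 5) and 2 at 25 weeks (replicates 2 and 3). The βEedKO mice were homozygous for a floxed Eed allele and carried RIP-cre, a Cre transgene under an insulin promoter, so that β cells lost Eed while the other cell types of the islet kept it. Whether the wild-type and heterozygous mice carried the Cre transgene is not given in the sources used here. The 25-week βEedKO mice were diabetic. Each βEedKO library of that age was made from islets pooled over several animals, and age, diabetes and time without Eed cannot be told apart within that group.

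An imprinted gene is transcribed mainly or only from the copy inherited from one parent. The choice is set in the germ line by DNA methylation at an imprinting control region and is kept through development, often over clusters of several genes. Igf2, Dlk1, Peg3 and Plagl1 are paternally expressed in most tissues, and H19, Meg3, Rian and Mirg are non-coding RNAs expressed from the maternal copy. Several of these genes are active in the fetus and turned down after birth. Eed is a core subunit of Polycomb repressive complex 2, which methylates lysine 27 of histone H3 and keeps developmental genes silent. The counts do not separate the parental copies, so every value below is the sum over both.

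Total counts per library ran from 4645393 (wild type at 25 weeks, replicate 2) to 22925359 (heterozygous at 8 weeks, replicate 2). Levels are given as CPM, the reads of a gene over the library total scaled up to a common size, here scaled with edgeR's TMM factors. Eed itself had 23.9, 33.1 and 31.3 CPM in wild type and 14.9, 13.4 and 14.8 CPM in βEedKO at 8 weeks, with 17.2, 17.1 and 20.5 CPM in the heterozygous islets. At 25 weeks it had 28.3, 22.0 and 19.3 CPM in wild type, 16.3 and 16.9 CPM in heterozygous and 15.6 and 14.2 CPM in βEedKO islets. No βEedKO library reached a wild-type library of its age, and edgeR's quasi-likelihood test with Benjamini-Hochberg adjustment gave adjusted p = 0.0881 at 8 weeks and 0.142 at 25 weeks. The other libraries held 9.4% to 18.9% of their counts in Ins1 and Ins2, and the 25-week βEedKO libraries 0.891% and 2.21%. The sum of 6 acinar markers was 292000 CPM in βEedKO replicate 2 and 9410 CPM in replicate 3 at 25 weeks, and that of 5 interferon-induced genes was 2000 to 3360 CPM in wild-type replicates 3 and 4 and βEedKO replicates 4 and 5 at 8 weeks, against 17.1 to 77.9 CPM in the other 12 libraries. These are whole islets, so that fewer cells of a type and less RNA per cell cannot be told apart.

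The members with an adjusted p under 0.05 in edgeR's main comparisons of genotypes below are Igf2, Dlk1, Gnas and Peg3. Peg3 passed only against heterozygous islets. The sequence just before the start sites of these members shows how unlike their promoters are. The 200 bases before a start are printed 5′ to 3′ on the gene's strand from RefSeq, build GRCm38.p6, with each CG dinucleotide in capitals, since imprinted control and Polycomb recruitment both involve CpG-rich DNA. RefSeq lists 17 start sites for 9 of the members, and H19 had no entry. The first 4 lines are the starts of Igf2 (minus strand, chr7:142666817-142667016, chr7:142661272-142661471, chr7:142658805-142659004 and chr7:142657497-142657696), in the order of transcription. They held 1, 10, 16 and 5 CG, against a median of 5 in the same window over 32851 RefSeq promoters.
Igf2 first start: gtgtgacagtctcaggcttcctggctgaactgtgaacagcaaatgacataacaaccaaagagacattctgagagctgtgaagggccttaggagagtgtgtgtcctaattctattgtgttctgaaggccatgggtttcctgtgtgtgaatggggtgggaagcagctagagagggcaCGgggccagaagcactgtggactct
Igf2 second start: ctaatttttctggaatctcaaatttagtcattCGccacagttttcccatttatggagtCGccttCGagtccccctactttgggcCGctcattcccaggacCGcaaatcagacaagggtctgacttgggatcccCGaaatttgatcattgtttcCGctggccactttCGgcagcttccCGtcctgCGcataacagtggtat
Igf2 next start: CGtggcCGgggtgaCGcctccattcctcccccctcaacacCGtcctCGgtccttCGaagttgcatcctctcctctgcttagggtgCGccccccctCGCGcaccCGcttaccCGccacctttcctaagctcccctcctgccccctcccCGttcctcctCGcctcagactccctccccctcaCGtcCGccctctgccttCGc
Igf2 last start: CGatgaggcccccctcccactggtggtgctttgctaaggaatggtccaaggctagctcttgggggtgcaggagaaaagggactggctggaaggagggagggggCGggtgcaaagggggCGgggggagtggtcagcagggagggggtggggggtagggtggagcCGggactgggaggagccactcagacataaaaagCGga
Dlk1: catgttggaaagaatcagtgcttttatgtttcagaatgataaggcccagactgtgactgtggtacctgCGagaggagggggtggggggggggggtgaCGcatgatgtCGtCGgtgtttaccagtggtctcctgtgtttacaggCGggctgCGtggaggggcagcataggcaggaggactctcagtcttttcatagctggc
Meg3 first start: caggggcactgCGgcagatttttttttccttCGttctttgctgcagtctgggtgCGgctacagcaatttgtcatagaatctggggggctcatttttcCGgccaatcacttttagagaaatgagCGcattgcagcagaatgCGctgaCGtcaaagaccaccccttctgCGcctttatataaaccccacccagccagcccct
Peg3: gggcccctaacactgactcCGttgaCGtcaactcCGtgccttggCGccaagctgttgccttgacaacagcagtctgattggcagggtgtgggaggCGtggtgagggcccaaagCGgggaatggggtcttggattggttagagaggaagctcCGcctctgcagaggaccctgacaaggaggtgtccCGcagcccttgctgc
Gnas first start: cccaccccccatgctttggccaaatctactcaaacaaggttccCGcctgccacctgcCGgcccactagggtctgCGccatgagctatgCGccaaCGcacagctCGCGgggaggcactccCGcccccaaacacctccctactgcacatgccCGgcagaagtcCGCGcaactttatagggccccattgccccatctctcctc
Gnas last start: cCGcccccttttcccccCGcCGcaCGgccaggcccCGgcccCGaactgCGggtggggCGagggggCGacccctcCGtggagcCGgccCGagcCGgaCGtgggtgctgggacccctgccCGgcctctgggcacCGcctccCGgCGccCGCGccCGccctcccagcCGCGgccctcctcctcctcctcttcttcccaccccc

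The Dlk1 window (plus strand, chr12:109452623-109452822) held 6 CG, the first Meg3 window (plus strand, chr12:109540796-109540995) 8 and the Peg3 window (minus strand, chr7:6730420-6730619) 8. The first Gnas window (plus strand, chr2:174284120-174284319) held 11, and the last one (plus strand, chr2:174329806-174330005), which lies before the start of the transcript for the widely expressed G protein subunit, held 23. The hexamer TGCCGC, the motif read by the imprint-keeping zinc finger protein ZFP57 when its CG is methylated, was searched on both strands. It occurred in 2 of the 17 member windows, the first of Meg3 and that of Plagl1, and in 7.37% of the 32851 promoters. A match is only a run of letters in the window.

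Some members also host microRNAs. RefSeq places the hairpin of miR-483 in an intron of Igf2 on chromosome 7, where no exon of Igf2 overlaps it, and that of miR-675 in an exon of H19. The mature forms are printed with the seed, bases 2 to 8, in capitals because the seed decides which messages a microRNA pairs with.
mmu-miR-483-5p: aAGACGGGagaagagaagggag
mmu-miR-483-3p: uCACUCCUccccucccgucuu
mmu-miR-675-5p: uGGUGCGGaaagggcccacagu
mmu-miR-675-3p: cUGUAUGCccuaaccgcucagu

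These 4 seeds all differ. Mirg hosts 26 mature microRNAs in the same table, Rian 6, Meg3 3 and H19 and Igf2 2 each. Small RNAs were not measured in these libraries.

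The authors' chromatin map of wild-type islets, in which EpicSeg gave each bin of 200 bp a letter from histone marks, RNA polymerase and DNA methylation, set the members apart in kind. The deposited map holds 24 letters. This is not the number of states named for the model in the study's text, and the difference is not explained in the sources used here. Letters A and B are active start sites, H and J are elongation states, L and M are bivalent states that carry both H3K4me3 and H3K27me3, and N, O and P are Polycomb-repressed. The gene start of H19, Dlk1, Plagl1 and Grb10 lay in M, that of Gnas in L and that of Igf2 in N, while Meg3 and Peg3 started in A and Rian and Mirg in H. So 6 of the 10 members started in a bivalent or Polycomb state. Over all 42903 annotated genes with a state, these bivalent or Polycomb letters (K to P) together held 39.4% of gene starts, of which L held 7.58%, M 4.38% and N 8.74%, and A held 16.3%. The map holds no replicates, covers both parental copies at once and describes all islet cells together, so an active letter on one copy and a repressed letter on the other appear as a mixture.

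Single gene starts hid part of this. Igf2 (ENSMUSG00000048583.16, chromosome 7 from 142650766 to 142666816, minus strand) has 9 annotated starts, of which the first lay in N, 3 about 5 kb further on in M, 1 in L and 4 in N. Over the gene body N covered 41.2%, M 36.1%, O 12.7% and L 9.97%. H19 (ENSMUSG00000000031.15, chromosome 7 from 142575529 to 142578143, minus strand) lay in N over 71.6% and M over 28.4% of its length. Between the H19 start and the Igf2 gene end, 44.6% of the 72622 bp was O and 40.8% N. The control region of this pair is known to lie just upstream of H19, and the interval from 2 to 4 kb upstream of the H19 start was M over 82.9% and N over 17.1%.

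**Figure D1:**
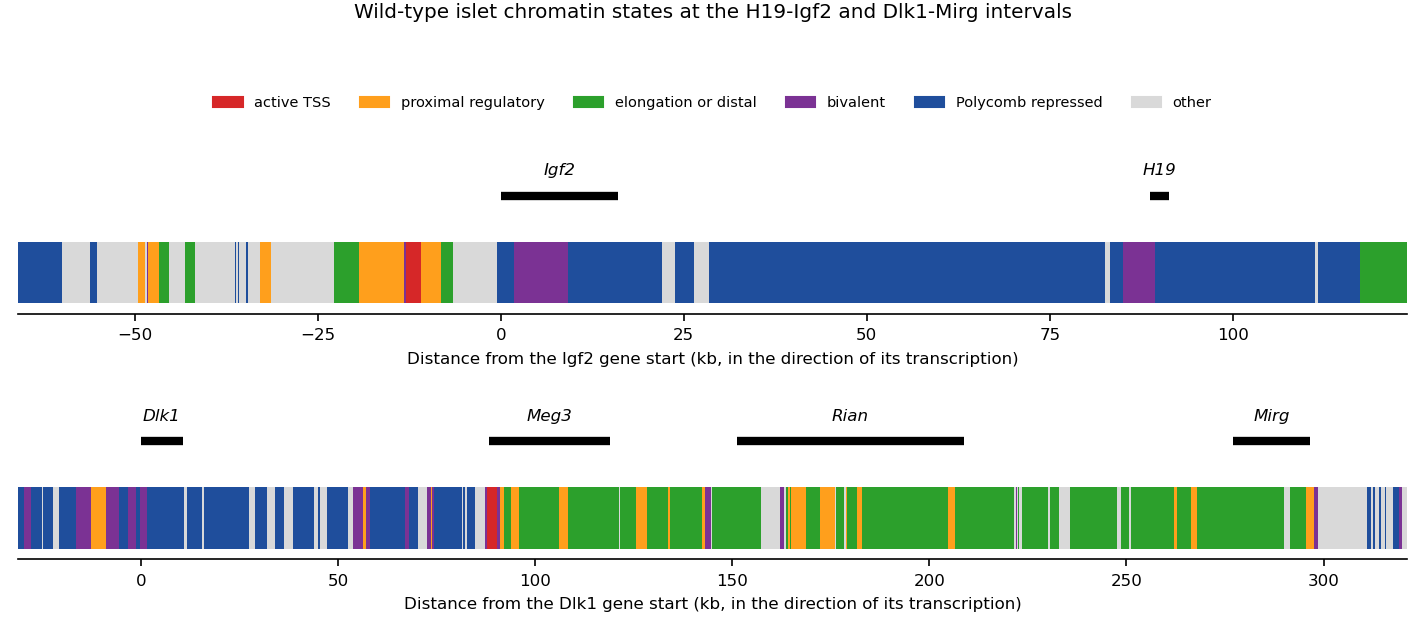
Chromatin state classes of wild-type islets along the H19-Igf2 interval (upper bar) and the Dlk1-Mirg interval (lower bar), with the x axis in kb from the Igf2 or the Dlk1 gene start in the direction of transcription and the genes as black bars. The stretch from Igf2 to H19 is almost all Polycomb repressed or bivalent. Upstream of Igf2 (negative kb) the bar also holds active start-site, proximal regulatory and other states. Meg3, Rian and Mirg lie mainly in elongation or distal and proximal regulatory states, and Dlk1 in bivalent and Polycomb repressed ones.

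The Dlk1 domain was split. Dlk1 (ENSMUSG00000040856.17, chromosome 12 from 109452823 to 109463336, plus strand) has 9 start sites in M, L and O, and its body was O over 64.1% and N over 20.9%. Meg3 (ENSMUSG00000021268.17, chromosome 12 from 109541001 to 109571726, plus strand) began 88178 bp further on, with its first 5 starts in A and a body of H, J and F. Rian (ENSMUSG00000097451.9) and Mirg (ENSMUSG00000097391.8), on the same strand, began 151117 and 276941 bp from Dlk1, and Mirg was H over 69.2% of its length. The interval from 12 to 15 kb upstream of Meg3, where the intergenic control region of the domain is known to lie, was O over 60.0%, K (a bivalent state) over 33.3% and D over 6.66%.

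Gnas (ENSMUSG00000027523.19, chromosome 2 from 174284320 to 174346744, plus strand) has 16 annotated starts that spell out its known arrangement of alternative promoters. Those at 0 to 13539 bp from the gene start lay in L and M, and 8 of the 12 from 43250 bp on lay in A. Gene counts add the transcripts of all these starts. Grb10 (ENSMUSG00000020176.17, chromosome 11 from 11930508 to 12038683, minus strand), Plagl1 (ENSMUSG00000019817.18, chromosome 10 from 13060504 to 13131694, plus strand) and Peg3 (ENSMUSG00000002265.16, chromosome 7 from 6703892 to 6730431, minus strand) complete the set. Peg3 was F, a proximal regulatory and elongation state, over 62.5% of its length, and the starts of Grb10 fell in 6 different states, A among them.

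Levels differed widely among the members in wild-type islets of 8 weeks, compared here as CPM per kb of exon. Peg3 had 106 ± 29.6, Meg3 45.7 ± 13.3 and Rian 33.5 ± 2.18 CPM per kb (SD, n = 3). Grb10 (6.30 ± 1.94), Gnas (5.65 ± 0.909), Plagl1 (5.38 ± 3.23) and Mirg (4.76 ± 1.73) followed, and neighbours in this order of 4 differed by less than their spread. Igf2 had 1.29 ± 0.310, Dlk1 0.937 ± 0.441 and H19 0 CPM per kb, and Igf2 and Dlk1 overlapped. Meg3 and Rian also overlapped, and changed places when the length of the longest transcript was used instead of all exons. Gnas shares 1469 bp of exon with Gm20721, a gene model on the opposite strand, and 988 bp with the antisense RNA Nespas, and the strand setting of the counting is not given in the sources used here. In the reference annotation Igf2 shares 3596 bp of exon with Gm49394, a protein-coding gene model on the same strand. Meg3 shares 1228 bp with Gm26906, a non-coding gene model on the opposite strand. Reads on the shared bases cannot be told apart by gene, so the levels of Gnas, Igf2 and Meg3 are uncertain.

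**Figure D2:**
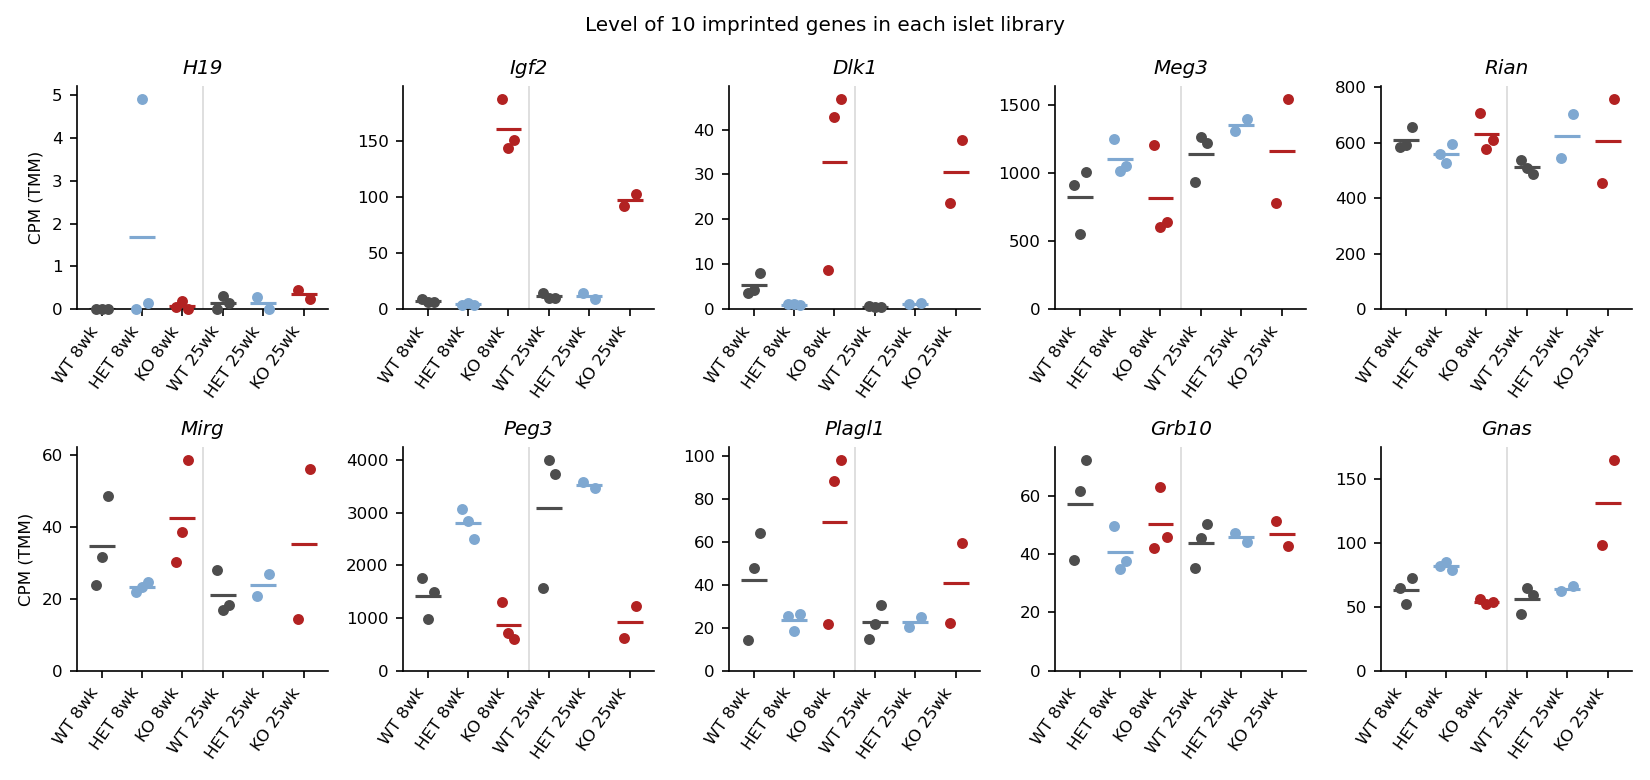
Level of each member in CPM (linear y axes, 1 panel a gene, each with its own scale) in every library, grouped by genotype and age on the x axis. Points are libraries and bars are group means: the βEedKO libraries of Igf2 (91.8 to 188 CPM) stand above all the others (3.79 to 14.6 CPM) at both ages, and those of Dlk1 do so among libraries of their own age.

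The comparison of βEedKO with wild-type islets asks what loss of Eed does to each gene at each age. Igf2 was called higher at both ages, Dlk1 and Gnas were called higher at 25 weeks, and no member was called lower. Peg3 had a log2 fold change of -1.81 ± 0.56 at 25 weeks and was not called (adjusted p = 0.0877 in edgeR). A gene was called when its adjusted p in edgeR's quasi-likelihood test, with Benjamini-Hochberg adjustment over all genes tested, was under 0.05. The filter on low counts let through 9 of the 10 members, all but H19. At 8 weeks 1 member was called, Igf2, where 0.434% of 18685 tested genes were called; with the replicate number as a block 0 members and 0 genes were. At 25 weeks 3 members were called, where 6.6% of the genes were. The members were chosen with earlier results of these data known, so these counts are a description.  In the test of whether the effect of genotype differed between the ages, which called 0.198% of genes, 0 members were called. Of the 9 tested members 3 had an unadjusted p under 0.05 in that test (Igf2, Dlk1 and Gnas), as 1450 of the 18685 genes did. DESeq2 called 2 of them, Igf2 and Gnas, among 340 genes.

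**Figure D3:**
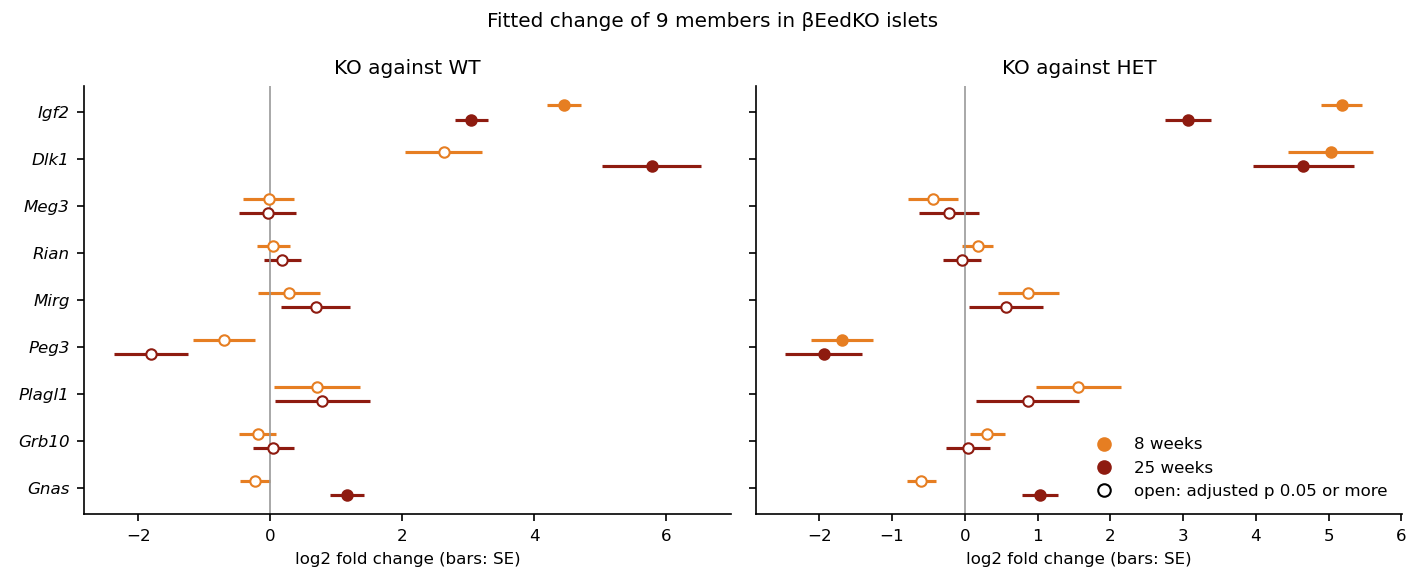
Fitted log2 fold change with its SE (bars) for the 9 tested members at 8 weeks (orange) and 25 weeks (dark red), βEedKO against wild type on the left and against heterozygous on the right; filled points had an adjusted p under 0.05 in edgeR. Igf2 is filled in all 4 comparisons, Dlk1 in 3 and Peg3 only against the heterozygous libraries.

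Igf2 encodes insulin-like growth factor 2, a fetal growth factor that signals through the IGF1 and insulin receptors. At 8 weeks it had 9.39, 6.69 and 6.04 CPM in wild type, 4.04, 5.41 and 3.79 CPM in heterozygous and 188, 143 and 151 CPM in βEedKO islets. All βEedKO libraries stood above all controls, and the 3 groups did not overlap. The log2 fold change of βEedKO against wild type was 4.45 ± 0.26 (SE), a 21.8-fold rise, with adjusted p = 8.59e-05 in edgeR, the smallest p of the 18685 genes. By size of the fold change Igf2 ranked 199th. With the replicate number as a block the log2 fold change was 4.44 ± 0.23 and adjusted p = 0.0534, in a fit that called 0 genes. Igf2 was called in 14 of 15 alternative settings, that one being the exception.

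At 25 weeks Igf2 had 14.6, 9.86 and 9.75 CPM in wild type, 14.5 and 8.69 CPM in heterozygous and 91.8 and 102 CPM in βEedKO islets. The βEedKO libraries again stood apart from all controls, and the wild-type and heterozygous libraries overlapped. The log2 fold change was 3.05 ± 0.25, with adjusted p = 0.000172 in edgeR, and it was called in 13 of 13 alternatives. The fold change at 25 weeks was lower than at 8 weeks by 1.40 ± 0.34 on the log2 scale, which edgeR did not call (adjusted p = 0.185) and DESeq2 did (adjusted p = 0.0162). In reads, the βEedKO libraries held 3952, 2860 and 1740 Igf2 reads at 8 weeks and 1207 and 2535 at 25 weeks, against 67 to 148 in wild type.

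Igf2os, an RNA on the strand opposite to Igf2 that shares 98 bp of exon with it, was called higher as well. It had 2, 0 and 3 reads in the wild-type and 104, 82 and 41 in the βEedKO libraries at 8 weeks, and 3, 6 and 4 against 59 and 127 at 25 weeks. In the βEedKO libraries of 8 weeks its reads were 2.36% to 2.87% of those on Igf2, and in the wild-type libraries of both ages 0% to 4.58%. That share was 4.89% and 5.01% in the βEedKO libraries of 25 weeks and 0% to 5.45% in the heterozygous libraries. Its log2 fold change was 5.34 ± 0.70 at 8 weeks (adjusted p = 0.0103 in edgeR) and 3.35 ± 0.66 at 25 weeks (adjusted p = 0.0149 in edgeR). The kit used for the libraries does not mark strand, so reads on the shared bases cannot be given to one gene or the other. Unspliced Igf2 RNA could also give reads on exons of Igf2os inside the Igf2 gene. A rise of Igf2os apart from that of Igf2 was not tested.

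H19, the maternally expressed non-coding RNA next to Igf2 that shares its enhancers, had few reads in nearly all libraries. It had 0, 0 and 0 reads in wild type and 1, 4 and 0 in βEedKO islets at 8 weeks, and 0, 4 and 2 against 6 and 6 at 25 weeks. A count of 0 allows up to 0.159 to 0.190 CPM in the 8-week wild-type libraries, taking 3 reads as the limit, which covers counting error only. The heterozygous libraries held 0, 111 and 2 reads at 8 weeks and 5 and 0 at 25 weeks. The library with 111 reads, replicate 2 at 8 weeks, had 4.92 CPM of H19, 5.41 CPM of Igf2 and a sum of 135 CPM over 7 mesenchymal markers, the highest such sum among the heterozygous libraries. H19 did not pass the filter and was not tested; in the libraries where Igf2 had 91.8 to 188 CPM it had at most 0.457 CPM.

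Dlk1 encodes a transmembrane protein of the Notch ligand family that is high in fetal and progenitor cells. At 8 weeks it had 3.55, 4.19 and 8.16 CPM in wild type, 1.05, 1.11 and 0.826 CPM in heterozygous and 8.63, 42.8 and 46.9 CPM in βEedKO islets. The βEedKO libraries all lay above the wild-type ones, with βEedKO replicate 1 next to wild-type replicate 4. The log2 fold change was 2.63 ± 0.58 and adjusted p = 0.106 in edgeR, so Dlk1 was not called at 8 weeks. It was called in 6 of 15 alternatives, DESeq2 among them (adjusted p = 0.000989), and with the replicate block its log2 fold change was 1.86 (adjusted p = 0.402).

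The replicate numbers and the interferon-induced genes moved with Dlk1 at 8 weeks. βEedKO replicate 1, with 8.63 CPM of Dlk1, had a sum of 27.9 CPM over the interferon-induced genes, and replicates 4 and 5, with 42.8 and 46.9 CPM, had 2870 and 3360 CPM. Wild-type replicate 1 had 3.55 CPM of Dlk1 and a sum of 47.6 CPM, and replicates 3 and 4 had 4.19 and 8.16 CPM with sums of 2000 and 2080 CPM. Without the libraries numbered 1 at 8 weeks, an alternative chosen after seeing the data, the log2 fold change was 2.86 ± 0.35 and adjusted p = 0.0211 in edgeR. The part of the interferon-induced state in the level of Dlk1 was not tested.

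At 25 weeks Dlk1 had 0.654, 0.452 and 0.542 CPM in wild type, 1.14 and 1.28 CPM in heterozygous and 23.7 and 37.7 CPM in βEedKO islets. These are 3, 6 and 7 reads, 21 and 22 reads, and 311 and 933 reads. The 3 groups did not overlap, and the log2 fold change of βEedKO against wild type was 5.78 ± 0.75 (adjusted p = 0.002 in edgeR), called in 13 of 13 alternatives. The change between the ages of the genotype effect, 3.15 ± 0.91 on the log2 scale, was not called (adjusted p = 0.295 in edgeR). As a description, the mean level in βEedKO was 32.8 ± 21.0 CPM (SD, n = 3) at 8 weeks and 30.7 ± 9.90 CPM (SD, n = 2) at 25 weeks, while that in wild type was 5.30 ± 2.50 and 0.549 ± 0.102 CPM (SD, n = 3 each).

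None of the 3 maternal RNAs of the same domain was called in this comparison. Meg3, a long non-coding RNA that is abundant in islets, had 915, 555 and 1009 CPM in wild type and 1210, 608 and 638 CPM in βEedKO islets at 8 weeks. At 25 weeks it had 934, 1270 and 1224 CPM against 777 and 1549 CPM. The libraries overlapped at both ages, with log2 fold changes of -0.02 ± 0.39 and -0.03 ± 0.43. Rian, host of small nucleolar RNAs, had 582 to 656 CPM in wild type and 577 to 707 CPM in βEedKO islets at 8 weeks, and 487 to 538 CPM against 453 and 759 CPM at 25 weeks. Its log2 fold changes were 0.05 ± 0.25 and 0.18 ± 0.28. Mirg, host of a microRNA cluster, had 23.9 to 48.6 CPM against 30.3 to 58.7 CPM at 8 weeks and 16.8 to 28.1 CPM against 14.3 and 56.1 CPM at 25 weeks, with log2 fold changes of 0.29 ± 0.47 and 0.69 ± 0.53. Adjusted p for the 3 genes in edgeR ran from 0.523 to 1.0, and in no alternative were they called in this comparison.

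The ratio of Dlk1 to Meg3 describes the domain within each library. Per kb of exon, Dlk1 was 0.0124 to 0.0258 of Meg3 in the 8-week wild-type libraries and 0.00114 to 0.00224 in those of 25 weeks. In βEedKO it was 0.0228, 0.225 and 0.235 at 8 weeks and 0.0973 and 0.0777 at 25 weeks. The ratio in βEedKO replicate 1 at 8 weeks fell among the wild-type values of that age, and the other 4 βEedKO ratios lay above all ratios of the other libraries. The ratio of Rian to Meg3 in CPM ran from 0.398 to 1.07 in wild type and from 0.490 to 0.957 in βEedKO, so those ranges overlapped.

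Peg3 encodes a zinc finger protein known for roles in growth and stress response, and it was the highest member in every group per kb of exon. At 8 weeks it had 1753, 980 and 1501 CPM in wild type, 3077, 2842 and 2510 CPM in heterozygous and 1304, 721 and 600 CPM in βEedKO islets. The βEedKO libraries overlapped with wild type and lay below all heterozygous ones. At 25 weeks it had 1568, 3999 and 3730 CPM in wild type, 3592 and 3473 CPM in heterozygous and 617 and 1225 CPM in βEedKO islets, which lay below all controls. Against wild type the log2 fold changes were -0.69 ± 0.47 at 8 weeks (adjusted p = 0.815 in edgeR) and -1.81 ± 0.56 at 25 weeks (adjusted p = 0.0877 in edgeR), so Peg3 was not called. At 25 weeks 4 of 13 alternatives called it, among them DESeq2 (adjusted p = 0.0046).

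Gnas encodes the stimulatory G protein α subunit, which couples receptors such as that of GLP-1 to cyclic AMP, along with several other products from alternative starts. At 25 weeks it had 44.3, 64.8 and 58.9 CPM in wild type, 61.9 and 65.9 CPM in heterozygous and 98.0 and 165 CPM in βEedKO islets. The βEedKO libraries were the highest, and the log2 fold change against wild type was 1.17 ± 0.26 (adjusted p = 0.0233 in edgeR). Gnas was called in 8 of 13 alternatives; it was lost with scaling to library size alone (adjusted p = 0.0791 in edgeR) and when 1 library was left out, either wild-type replicate 2, 3 or 4 (edgeR adjusted p = 0.0555, 0.0623 and 0.0771) or βEedKO replicate 3 (edgeR adjusted p = 0.237). At 8 weeks it had 64.9, 52.3 and 72.4 CPM in wild type and 56.1, 52.1 and 53.7 CPM in βEedKO islets, with a log2 fold change of -0.23 ± 0.23 (adjusted p = 0.906 in edgeR). The 2 βEedKO libraries of 25 weeks also had the lowest share of insulin reads, as given above, and leaving those reads out of the scaling kept the same 3 members called. TMM already trims genes of extreme level or change, so that alternative could move little. The part of cell makeup in the level of Gnas was not tested. Nespas, the antisense RNA at the upstream Gnas starts, had 1.60 and 3.79 CPM in βEedKO and 0.436, 0.226 and 0.0774 CPM in wild type at 25 weeks (log2 fold change 3.55 ± 0.81, adjusted p = 0.029 in edgeR).

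Plagl1, a zinc finger transcription factor that limits cell growth, and Grb10, an adaptor that dampens insulin and IGF1 receptor signalling, were called at neither age. Plagl1 had 14.4, 47.8 and 64.0 CPM in wild type and 21.8, 88.0 and 97.9 CPM in βEedKO islets at 8 weeks. In both wild type and βEedKO the lowest library was replicate 1, as for Dlk1, and the others were those high in interferon-induced genes. The log2 fold change of Plagl1 was 0.71 ± 0.65 at 8 weeks and 0.79 ± 0.72 at 25 weeks (14.8, 21.9 and 30.7 against 22.1 and 59.5 CPM). Grb10 had 37.9, 61.6 and 72.2 CPM in wild type and 42.1, 63.0 and 46.0 CPM in βEedKO islets at 8 weeks, and 35.3 to 50.4 CPM against 51.4 and 42.6 CPM at 25 weeks. Its log2 fold changes were -0.19 ± 0.28 and 0.05 ± 0.31, with adjusted p = 0.946 and 0.955 in edgeR.

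Compared with the heterozygous libraries instead, and sharing the same βEedKO libraries, 3 members were called at 8 weeks, where 4.74% of 18828 genes were, and 4 at 25 weeks, where 8.36% were. At 8 weeks Igf2 (log2 fold change 5.18 ± 0.29, adjusted p = 1.68e-06 in edgeR) and Dlk1 (5.03 ± 0.58, adjusted p = 0.000936 in edgeR) were higher in βEedKO. Peg3 was lower, by a log2 fold change of -1.68 ± 0.43 (adjusted p = 0.0419 in edgeR), and 5 of 12 alternatives called it. The interferon-induced sum was 27.9, 2870 and 3360 CPM in βEedKO replicates 1, 4 and 5, and 17.1 to 25.6 CPM in the heterozygous libraries of 8 weeks. In the same order the βEedKO libraries had 1304, 721 and 600 CPM of Peg3, 8.63, 42.8 and 46.9 CPM of Dlk1, and 188, 143 and 151 CPM of Igf2. The part of that state in these differences was not tested. At 25 weeks Igf2 (3.07 ± 0.32, adjusted p = 0.000145 in edgeR), Dlk1 (4.65 ± 0.69, adjusted p = 0.00156 in edgeR) and Gnas (1.04 ± 0.25, adjusted p = 0.0206 in edgeR) were higher and Peg3 was lower (-1.94 ± 0.53, adjusted p = 0.0377 in edgeR). Gnas was called in 4 and Peg3 in 3 of 9 alternatives there.

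Between heterozygous and wild-type islets 0 genes were called by edgeR at 8 weeks (0%) and 0 at 25 weeks (0%), members included. At 8 weeks 2743 genes, 3 members among them (Igf2, Dlk1 and Peg3), had an unadjusted p under 0.05, and DESeq2 called 407 genes, of the members Dlk1. Dlk1 was lower in all 3 heterozygous libraries than in any wild-type library of that age, with a log2 fold change of -2.40 ± 0.54 (adjusted p = 0.212 in edgeR). Without the libraries numbered 1, again chosen after seeing the data, edgeR called 2136 genes and 2 members, Dlk1 (-2.63 ± 0.37, adjusted p = 0.00306) and Grb10. The wild-type libraries that remained were those with high interferon-induced genes, and no heterozygous library had them. At 25 weeks 210 genes and 0 members had an unadjusted p under 0.05, and DESeq2 called 3 genes and 0 members.

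In wild-type islets of 25 against 8 weeks edgeR called 4 genes (0.0212%) and 0 members. Dlk1 was lower at the older age in every library (3.55 to 8.16 CPM at 8 weeks and 0.452 to 0.654 CPM at 25 weeks), with a log2 fold change of -3.31 ± 0.61 and adjusted p = 0.129 in edgeR. Igf2, Dlk1 and Peg3 had an unadjusted p under 0.05, as 2670 genes did, and DESeq2 called Dlk1 (adjusted p = 0.00038) among 243 genes. These values share the 8-week wild-type libraries with the comparisons above.

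Genes that mark other cells were set beside the members that rose. The sum over 7 mesenchymal markers was 39.3 to 108 CPM in wild type and 68.9 to 215 CPM in βEedKO islets at 8 weeks, and 65.9 to 85.6 CPM against 191 and 225 CPM at 25 weeks. Mesenchymal cells are a known source of Igf2 and Dlk1. All 7 markers start in M, N or P in the wild-type map, so more mesenchymal cells and a rise of these genes in other islet cells cannot be told apart. The highest sum at 8 weeks, 215 CPM in βEedKO replicate 1, stood beside the highest Igf2, 188 CPM. βEedKO replicate 5 had 68.9 CPM of these markers, less than the 108 CPM of wild-type replicate 1, and had 151 CPM of Igf2 against 9.39 CPM there. The sum over 5 duct markers was 318 to 509 CPM against 435 to 580 CPM at 8 weeks and 220 to 284 CPM against 557 and 618 CPM at 25 weeks, and that over 5 macrophage markers 29.7 to 57.5 against 34.0 to 202 CPM at 8 weeks and 56.6 to 113 against 102 and 344 CPM at 25 weeks. Of the 5 duct markers 4 had a log2 fold change above 0 at 25 weeks, and Krt7 had -0.80 ± 0.22. No marker of the mesenchymal, duct and macrophage lists was at 0 in a group, and their part in the levels of Igf2 and Dlk1 was not tested. The sum over 6 β cell markers was 118000 to 179000 CPM in wild type and 116000 to 194000 CPM in βEedKO islets at 8 weeks, and 11900 and 14900 CPM in the βEedKO libraries of 25 weeks.

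The start-site letters of the members were set beside those of all tested genes. Of the genes starting in M, 2.55% of 902 were called higher in βEedKO at 8 weeks and 27.1% at 25 weeks, and of those starting in L, 1.83% of 2512 and 13.9%. Of those starting in N, as Igf2 does, 0.174% of 576 genes were called higher at 8 weeks, which is 1 gene, Igf2 itself, and 6.94% at 25 weeks. Other starts of Igf2 lay in M and L, and gene counts do not tell from which start its reads came. Of the genes starting in A, as Meg3 and Peg3 do, 0.0153% of 6533 were called higher at 8 weeks and 0.429% at 25 weeks, and of the 121 starting in H, as Rian and Mirg do, 0% and 1.65%. Of the 5 tested members with a start in L, M or N, Igf2 was called at 8 weeks and Igf2, Dlk1 and Gnas at 25 weeks, and Plagl1 and Grb10 were not. Grb10 and Gnas also have starts in A, and the gene counts do not tell these apart from the others.

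**Figure D4:**
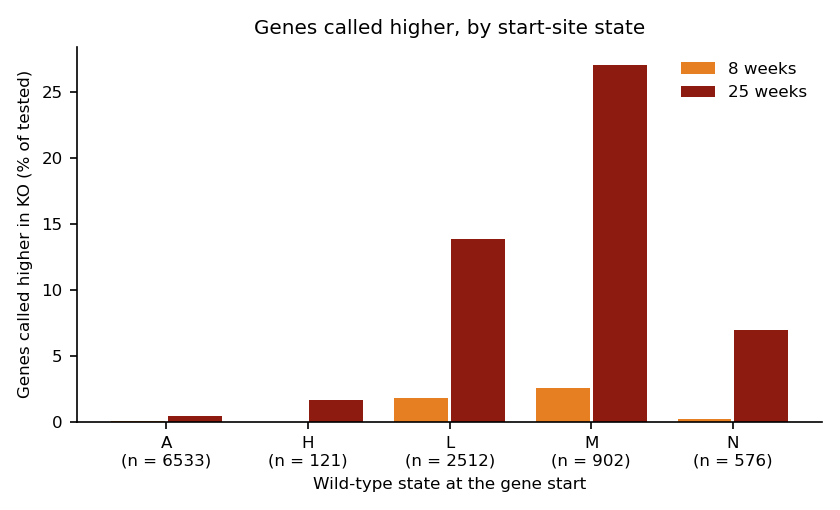
Percentage of tested genes called higher in βEedKO than wild type (y axis, bars from 0) by the wild-type state letter at the gene start (x axis, with the number of genes tested) at 8 weeks (orange) and 25 weeks (dark red). M holds the tallest bars at both ages (2.55% and 27.1%); N, the letter at the Igf2 gene start, reaches 0.174% and 6.94%.

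Neighbours of Igf2 and Dlk1 were read in the same fits. These called 0.434% of all tested genes at 8 weeks and 6.6% at 25 weeks. Of 17 tested genes within 500 kb of the Igf2 start, 1 was called higher at 8 weeks, Igf2os, whose reads may include those of Igf2 RNA. The median log2 fold change of the 17 was 0.13. The nearest other gene, Ins2, which lies upstream on the same strand, had a log2 fold change of 0.08 ± 0.74 at 8 weeks and -3.42 ± 0.96 at 25 weeks (adjusted p = 0.0626 in edgeR). At 25 weeks Igf2os and Cd81 were higher and Trpm5, Tssc4 and Th lower. For Th, the gene for tyrosine hydroxylase, the log2 value was -2.17 ± 0.37 (edgeR adjusted p = 0.00723). Of 12 tested genes within 500 kb of Dlk1, 0 were called at 8 weeks by edgeR, with a lowest adjusted p of 0.477, and at 25 weeks Begain alone, upstream of Dlk1 and starting in L, was higher (log2 fold change 3.80 ± 0.70, adjusted p = 0.01 in edgeR). Rtl1, a paternally expressed gene of the domain 147507 bp from Dlk1, had log2 fold changes of 1.20 ± 0.45 and 1.62 ± 0.50 (adjusted p = 0.501 and 0.0882 in edgeR).

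**Figure D5:**
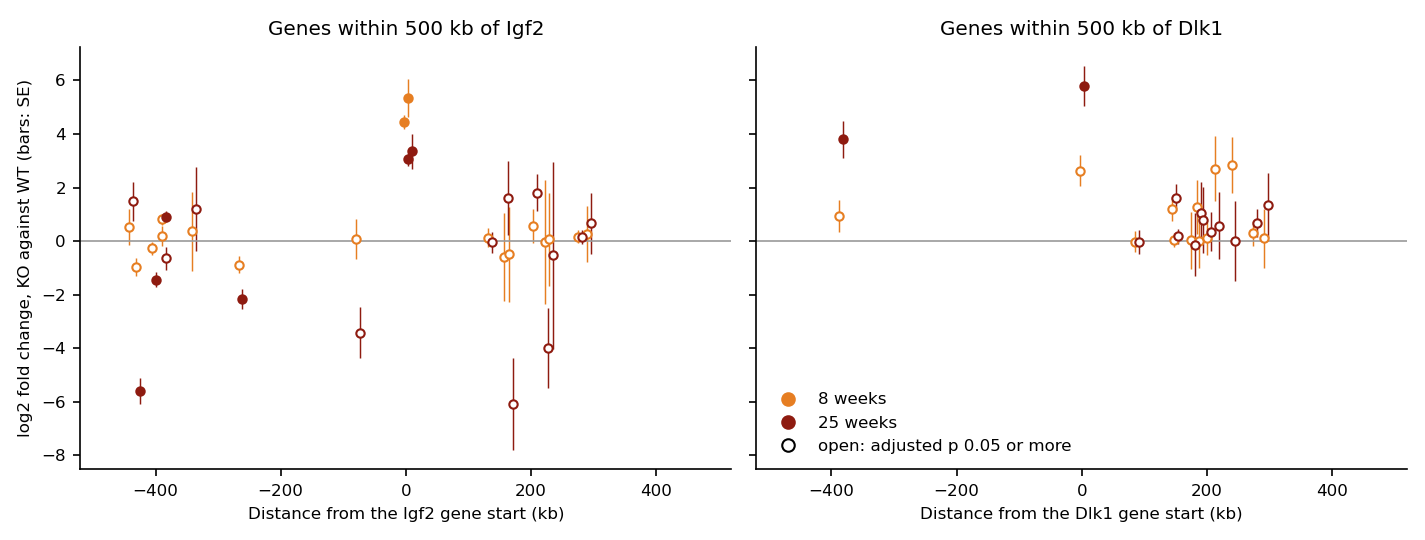
Log2 fold change of βEedKO against wild type with its SE (y axis) for tested genes within 500 kb of the Igf2 start (left) and the Dlk1 start (right), by distance in kb in the direction of transcription (x axis; the ages are set slightly apart), members included. Filled points were called in edgeR: at 8 weeks only Igf2 and Igf2os are filled, both near distance 0 on the left.

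Of 61 other imprinted genes listed, 51 were tested. The list was drawn up with earlier results of these data known, so its counts are a description. At 8 weeks 3 were higher and 0 lower in βEedKO, where 0.434% of all tested genes were called, and at 25 weeks 14 were higher and 3 lower, where 6.6% of all tested genes were called. The higher ones at 8 weeks were Igf2os, Kcnk9, a potassium channel gene (0.254, 0.174 and 0.0530 against 3.23, 3.81 and 1.47 CPM, log2 fold change 4.11 ± 0.66), and Sfmbt2, a Polycomb group gene (0.254, 0.233 and 0.265 against 9.01, 8.13 and 5.19 CPM, 4.85 ± 0.52). Kcnk9 and Sfmbt2 were higher at 25 weeks also, and the reads of Igf2os may include those of Igf2 RNA. In the Dlk1 domain Dio3, which inactivates thyroid hormone, was called at 25 weeks, with 0 reads in all 3 wild-type libraries and 1.75 and 5.05 CPM in βEedKO. Mest, a paternally expressed enzyme gene, rose at 25 weeks (10.0, 6.77 and 7.81 against 43.9 and 127 CPM, log2 fold change 3.33 ± 0.47), and its change at 8 weeks was -0.10 ± 0.41. Magel2 (5.33 ± 1.38) was called at 25 weeks, and Asb4, the last gene named by the rule, was called only against the heterozygous libraries of 8 weeks (2.39 ± 0.53).

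Genes that work with Igf2 were also listed, 14 in all with 12 tested: its receptor, the insulin receptor and substrates, binding proteins and the RNA-binding proteins named for Igf2. Of all tested genes edgeR called 0.434% at 8 weeks and 6.6% at 25 weeks. Of the 12 partners tested, 0 were called at 8 weeks, and at 25 weeks 2 were higher and 0 lower. They were Igf2bp1, at 0 reads in the wild-type libraries of that age and 1.75 and 4.52 CPM in βEedKO, and Igf2bp3 (log2 fold change 3.37 ± 0.78, adjusted p = 0.0299 in edgeR), both starting in M. Both are fetal RNA-binding proteins. At 8 weeks Igf2bp1 had 0.0634, 0.698 and 0.424 CPM in wild type and 6.50, 5.92 and 6.23 CPM in βEedKO (adjusted p = 0.0918 in edgeR). The receptor gene Igf1r had log2 fold changes of -0.07 ± 0.32 and -0.76 ± 0.36. Of 9 genes that maintain imprints, DNA methyltransferases and Ctcf included, 0 were called at 8 weeks and 1 was higher at 25 weeks, Zfp57, which starts in N. It had 0.218, 0.452 and 0.309 CPM in wild type and 6.39 and 9.37 CPM in βEedKO islets (log2 fold change 4.43 ± 0.69, adjusted p = 0.00451 in edgeR). At 8 weeks it had 0.634, 2.04 and 0.900 against 2.66, 7.12 and 8.39 CPM (adjusted p = 0.16 in edgeR).

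Over the 16 libraries the genes whose log2 CPM ran most like a member's were found by Pearson's r among 18828 genes, as a description. For Igf2 they were Igf2os (r = 0.956), Cpne2 and Raet1e (0.946 each), and for Dlk1 Qpct and Marcksl1 (0.96 each) and Slco3a1 (0.958). After group means were taken out, these fell to 0.573, 0.177 and 0.175 for Igf2 and 0.413, 0.794 and 0.645 for Dlk1. For Peg3 they were Pclo (0.981), Ahsa2 (0.974) and Asxl2 (0.968), for Plagl1 Rnd3 (0.974), Fbxw7 (0.963) and Chml (0.959), and for Meg3 Spaca6 (0.946), Gm26789 and Ppp1r9a (0.938 each). Grb10 was most like Pdzd8 (0.886), Ssh1 and Edem3, Mirg most like Btbd17 (0.89), Kcnmb4os2 and Lpar2, Gnas most like Pde11a (0.885), Slc5a10 and Sorcs2, and Rian most like Cdk5r2 (0.835), Hap1 and Zcchc3. Among members, Dlk1 and Igf2 had r = 0.803 over all libraries and -0.313 within groups, and Peg3 and Meg3 0.735 and 0.869. All genes of a library share its depth, its cell makeup and any batch. The reads of Igf2os may include those of Igf2 RNA, and these values carry no test.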

How the data were processed

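Bulk RNA of whole islets was sequenced in 16 libraries of 6 groups, and the groups were taken from the labels. The authors deposited counts per gene, per the submitters' processing notes made with TopHat2 2.0.13, featureCounts of Subread 1.5.0-p1 and GRCm38. The strand setting of the counting is not given in the sources used here, and the TruSeq RNA kit does not mark strand. The deposited chromatin map holds a state letter for each bin of 200 bp, called by the authors with EpicSeg on autosomes from averaged replicates. Of 47937 counted genes, 47224 identifiers matched the reference annotation and 713 did not. There were 0 count columns left unused.

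Genes were kept by filterByExpr, scaled with TMM factors and tested with edgeR 4.0.16 (R 4.3.3) by the quasi-likelihood F test with Benjamini-Hochberg adjustment over all genes tested. The βEedKO and wild-type groups shared a fit of 11 libraries (18685 genes, common biological coefficient of variation 0.456), and comparisons with heterozygous islets and of age came from a fit of 16 libraries (18828 genes, 0.424). SEs were obtained from each log2 fold change and its F statistic (size over root F). Alternatives used DESeq2 1.42.0, other scalings and filters, a replicate block, other controls and each library left out. Two-sided p-values measure the spread between these libraries, which per the study's methods were biological replicates, each of islets from few animals or, for βEedKO at 25 weeks, from larger pools. Over the 14 pairs within groups the chi-square per degree of freedom was 31.0 to 592 over genes with at least 10 reads, so no pair agreed within sampling noise. Tables were joined with Python 3.11.15 and pandas 2.3.3.

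Replicate numbers were checked for pairing by correlating deviations from the group means. The 4 wild-type and βEedKO pairs of the same number had r = 0.163 to 0.457, each over 0.1, although the labels do not say that a number marks a litter or day. Wild-type and βEedKO pairs of unlike number at 8 weeks ran from -0.528 to 0.45. At 25 weeks the 2 βEedKO libraries deviate from their mean as mirror images, so their values with 1 wild-type library have opposite signs (0.176 and -0.176). These correlations therefore cannot show whether the number marks pairs. The fits above have no block for the replicate number, and the blocked value is printed beside a result of this comparison where it changes the call.

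On simulated counts for 18685 genes, the 8-week comparison recovered 57% and 81% of genes changed by 2 and 3 on the log2 scale. The 25-week comparison recovered 42% and 72%, with 100 genes of each size. False calls numbered 6 at 8 weeks and 2 at 25 weeks. The changed genes were taken from those above a floor of mean level, and each count was drawn independently. Differences that many genes share between libraries, such as the interferon-induced state, were not simulated.

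The members and all gene lists were chosen with earlier results of these data known. The text names the 10 members and Eed, other imprinted genes called in any comparison (at most the 10 with the largest change at 25 weeks), listed Igf2 partners and imprint maintenance genes called at either age, and the 3 genes most like each member. Genes near a member, Igf1r and Rtl1 were named beyond that rule after their values were seen.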

Additional observations from a re-analysis of the deposited data

Results flagged for a closer look

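The test of whether the effect of genotype differed between the ages called 37 of 18685 genes. Among the members and the 51 other imprinted genes tested it called only Nnat. This is a paternally expressed gene for a small membrane protein of neuroendocrine cells. The log2 fold change of βEedKO against wild type was higher at 25 than at 8 weeks by 2.91 ± 0.33, tested as an interaction (adjusted p = 0.00579 in edgeR). Nnat had 28.1, 29.3 and 26.3 CPM in wild type and 391 and 255 CPM in βEedKO islets at 25 weeks, so both βEedKO libraries stood above all wild-type ones. The log2 fold change was 3.48 ± 0.25 there (adjusted p = 0.00017 in edgeR) and 0.57 ± 0.22 at 8 weeks (adjusted p = 0.516 in edgeR), where the βEedKO libraries had 33.6, 36.2 and 47.3 CPM.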

How the results depend on the processing

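No called member changed direction under any alternative run; members that were not called, such as Meg3, changed sign in some, and genes other than the members were not refitted one by one. Of the 10 members, 1 was called in βEedKO against wild type at 8 weeks; 2 were (Igf2 and Dlk1) with no filter on low counts, with DESeq2, with all 16 libraries in 1 fit, with wild type and heterozygous pooled and without the 8-week libraries numbered 1, and 0 with the replicate block. Leaving out single libraries gave 1 to 2 members (2 without βEedKO replicate 1). The count at 25 weeks, 3, became 2 with library size alone (Gnas lost), 4 with DESeq2, with all 16 libraries and with pooled controls (Peg3 gained), and 2 to 3 with single libraries left out, and that of heterozygous against wild type at 25 weeks was 0 in every alternative. For the difference between ages 0 became 2 with DESeq2 and 1 with pooled controls. For heterozygous against wild type at 8 weeks 0 became 1 with DESeq2, 2 without the libraries numbered 1 and 0 to 1 with single libraries left out (1 without wild-type replicate 1). Against heterozygous islets, 3 at 8 weeks became 1 with the replicate block, 2 with library size alone (Peg3 lost), 4 with DESeq2 and without the libraries numbered 1 (Plagl1 gained) and 2 to 4 with single libraries left out, and 4 at 25 weeks became 2 with library size alone, 2 with the replicate block and 2 to 3 with single libraries left out. For age in wild type 0 became 1, Dlk1, with no filter, with DESeq2 and without the libraries numbered 1. The cause was not tested.

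Same-numbered heterozygous pairs, 5 in all, had r = -0.015 to 0.161, and the replicate block changed no other count of members. No paired analysis was possible for age in wild type because the numbers lie within ages. Scaling to library size alone moved the median of all genes to 0.205 at 8 weeks and 0.265 at 25 weeks on the log2 scale, and that of Igf2 at 8 weeks was then 4.66. Counts over all genes moved more: 81 at 8 weeks became 0 with the replicate block, 393 with DESeq2, 503 with pooled controls, 137 with no filter and 18 to 135 with single libraries left out; 1234 at 25 weeks became 2093 with DESeq2, 2649 with pooled controls and 392 to 1127. The 37 of the age difference became 340, 2 (block), 204, 90 (16 libraries), 11 (library size), 73 (no filter) and 59 (without number 1). Against heterozygous islets 892 became 2303 with DESeq2, 1 with the block, 505 with library size, 4243 without number 1 and 143 to 4014, and 1574 became 2696, 429, 913 and 302 to 781. For age 4 became 243 with DESeq2, 2810 without number 1, 9 with no filter, 1 with library size and 0 to 31. The alternatives without number 1 and without insulin reads were chosen after seeing the data. H19 had 0 to 6 reads in 15 of 16 libraries and was not tested.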
